A study of Rattus norvegicus with 8 samples.

Results

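The circRNAs described here are 5 whose host genes regulate chromatin, out of 14145 circRNA probes on the array. They are rno_circRNA_015860 of Setd2 (probe ASCRPR002230), rno_circRNA_004155 of Kdm5b (probe ASCRPR006030), rno_circRNA_002750 and rno_circRNA_002748 of Tlk2 (probes ASCRPR004283 and ASCRPR001774), and rno_circRNA_005151 of Nsd2 (probe ASCRPR011102, listed under its older symbol Whsc1). The 5 were taken for their host genes from 58 circRNAs that the study lists as most increased or decreased on these same arrays. The comparison between morphine tolerance (MT) and normal saline (NS) thus chose them. Their differences are therefore given as a description, without a test. A filter kept the 11382 of the 14145 circRNA probes whose spots stood well above background on 4 or more arrays, and all 5 passed it.

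Adult male Sprague-Dawley rats of the MT group received 10 μg morphine per injection, 2 injections per day for 7 days. Tolerance is the state in which repeated opioid dosing weakens its own analgesic effect. The study assessed it with a tail-flick test and reports, citing its earlier work, that morphine's effect had nearly vanished by then. Those behavioural values were not analysed here. NS rats received the same volume of saline on the same schedule. The lumbar enlargement, the part of the spinal cord that serves the hind limbs, was collected on day 8, 1 h after an injection, and RNA of 4 MT and 4 NS rats was hybridised to 8 arrays, numbered MT1 to MT4 in the MT group and likewise in the NS group. The sample labels give an intraperitoneal route, whereas a heading of the methods and the results of the study speak of intrathecal injection. Neither group is an untouched animal, and RNA of the whole tissue mixes neurons and glia, so fewer cells of a type and less circRNA per cell cannot be told apart. The tissue could not be checked against cell type markers. Of the 82 probes that were neither control nor circRNA probes, only 39 could be given a gene name. None of the 17 markers looked for was among those names.

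A circRNA forms when the end of an exon is spliced back to the start of the same or an earlier exon, which gives a closed loop that RNase R does not digest. The host gene's promoter drives both the loop and the linear mRNA, and the level of one does not give the level of the other. The hosts here act on histones. Setd2 and Nsd2 are methyltransferases that place methyl groups on the same lysine of histone H3 over gene bodies, Nsd2 up to the dimethyl form and Setd2 the trimethyl form, the latter travelling with elongating RNA polymerase. Kdm5b is a demethylase that removes methyl groups from the lysine of histone H3 marked at active promoters. Tlk2 is a Tousled-like kinase that phosphorylates the histone chaperones of the Asf1 family, which hand new histones over for nucleosome assembly. None of the 39 other probes that could be given a gene name was for any of the 4 hosts, so nothing here speaks of their mRNA or protein.

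The annotated promoters of the hosts are shown as background, because the circRNAs of a gene arise from its transcripts. No loop was placed on its gene here, so whether these windows drive the 5 loops was not tested. The windows are the 250 bases before the annotated start in RefSeq (build GRCr8), written 5′ to 3′ on the gene's strand, with matches to a GC box (GGGCGG or CCGCCC) or a CCAAT box (CCAAT or ATTGG) in capitals.
Setd2, chr8:119389957-119390206, plus strand: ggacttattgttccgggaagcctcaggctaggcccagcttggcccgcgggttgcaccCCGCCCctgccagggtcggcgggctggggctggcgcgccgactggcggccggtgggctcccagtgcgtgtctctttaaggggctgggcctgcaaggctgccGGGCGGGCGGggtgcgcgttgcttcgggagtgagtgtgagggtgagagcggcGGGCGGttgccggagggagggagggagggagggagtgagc
Kdm5b, chr13:48554147-48554396, plus strand: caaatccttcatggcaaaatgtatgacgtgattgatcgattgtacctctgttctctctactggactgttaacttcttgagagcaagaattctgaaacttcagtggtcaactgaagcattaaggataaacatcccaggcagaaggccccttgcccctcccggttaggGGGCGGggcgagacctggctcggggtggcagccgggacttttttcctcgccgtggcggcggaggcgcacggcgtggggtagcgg
Tlk2, chr10:90656439-90656688, plus strand: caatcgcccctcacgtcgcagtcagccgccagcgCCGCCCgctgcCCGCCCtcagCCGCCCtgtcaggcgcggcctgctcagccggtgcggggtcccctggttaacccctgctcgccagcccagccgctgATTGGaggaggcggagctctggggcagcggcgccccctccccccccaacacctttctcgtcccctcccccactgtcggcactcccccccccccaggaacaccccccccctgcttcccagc
Nsd2, chr14:81135865-81136114, minus strand: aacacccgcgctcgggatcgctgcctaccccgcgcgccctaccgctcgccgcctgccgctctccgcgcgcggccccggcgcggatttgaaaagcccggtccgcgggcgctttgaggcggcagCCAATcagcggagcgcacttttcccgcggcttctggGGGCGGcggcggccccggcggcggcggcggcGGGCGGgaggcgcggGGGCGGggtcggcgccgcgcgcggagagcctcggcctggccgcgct
The windows held 22 (Setd2), 15 (Kdm5b), 20 (Tlk2) and 49 (Nsd2) CG dinucleotides, against a median of 5 over 33469 rat promoters of the same length. The Nsd2 window held more than 99.9% of those promoters did, and the Setd2, Tlk2 and Kdm5b windows more than 86.3%, 83.3% and 74.2%. All 4 windows had at least 1 GC box, a motif that 30.5% of all promoters held. There were 4 matches in Setd2, of which a pair overlapped, 3 each in Tlk2 and Nsd2, and 1 in Kdm5b. Tlk2 and Nsd2 had 1 CCAAT box each, and Setd2 and Kdm5b had no match to that motif, which 34% of promoters held. None of the 4 held the letters TATAAA or TTTATA, which 12.9% of promoters did. A match of letters is not a bound site.

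The primers of the qRT-PCR assay for rno_circRNA_005151 are shown as the sequences by which this loop was followed outside the array.
forward primer: ggacaaaaatcggataataaga
reverse primer: agaggactttttctgatgctaa
Each has 22 bases. By the study's account this loop takes in the first exon of its host gene. The study adds that such an exon is not usually thought to circularise, since no intron lies before it. The exons of the other loops and the probe sequences were not used here, so it cannot be said whether both Tlk2 probes read loops that share exons. For rno_circRNA_005151 the study reports significantly lower levels in MT than in NS by qRT-PCR, the same direction as on its arrays. The qRT-PCR values were not analysed here.

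The arrays differed in brightness. The median background-corrected signal was 11.1 to 38.9 intensity units on the MT arrays and 46.2 to 82.4 on the NS arrays, and 61.1% to 83.0% against 52.2% to 90.7% of circRNA probes were well above background. Over the 11382 circRNAs kept, the median difference MT minus NS before normalization was -1.40 on the log2 scale, and 0.05 after quantile normalization, which gives every array the same distribution of values. NS3 had the strongest brightness gradient across its surface, 17.3 in root mean square against 1.25 to 4.17 on the other 7 arrays. All MT arrays lay in row 1 of the slide and all NS arrays in row 2, so slide row and group cannot be told apart.

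The signals before normalization are given first, in intensity units. The probe of rno_circRNA_015860 (Setd2) gave 405, 793, 420 and 536 on MT1 to MT4, and 764, 30.9, 46.7 and 289 on NS1 to NS4. The MT arrays lay close together, whereas NS1 was as bright as the brightest MT arrays and NS2 and NS3 were the dimmest of the 8. All 8 spots were well above background.

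The probe of rno_circRNA_004155 (Kdm5b) gave 217, 423, 94.5 and 179 on MT1 to MT4, and 215, 21.3, 22.4 and 63.8 on NS1 to NS4. NS1 again stood at the level of MT1, and the other 3 NS arrays lay below all MT arrays. The spot on NS3 was not well above background, although it was still significantly positive.

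The first Tlk2 circRNA, rno_circRNA_002750, gave 233, 350, 111 and 190 on MT1 to MT4, and 213, 26.7, 32.4 and 76.5 on NS1 to NS4. The second, rno_circRNA_002748, gave 149, 224, 46.1 and 98.8 on MT1 to MT4, and 99.6, 13.8, 13.1 and 28.5 on NS1 to NS4. In both, NS1 exceeded MT3 and MT4 and the other NS arrays lay below every MT array. Both spots on NS3 were not well above background.

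The probe of rno_circRNA_005151 (Nsd2) gave 1.40, 35.2, 300.0 and 138 on MT1 to MT4, and 2196, 1658, 1837 and 1989 on NS1 to NS4. The 4 NS arrays were alike and every MT array lay below them. On MT1 the signal did not exceed background, with an error of 1.38 from the scanner software's error model, so its fold difference from the NS arrays is poorly fixed. The other 3 MT spots were well above background, and none of the 40 spots of the 5 circRNAs was saturated or an outlier.

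**Figure D1:**
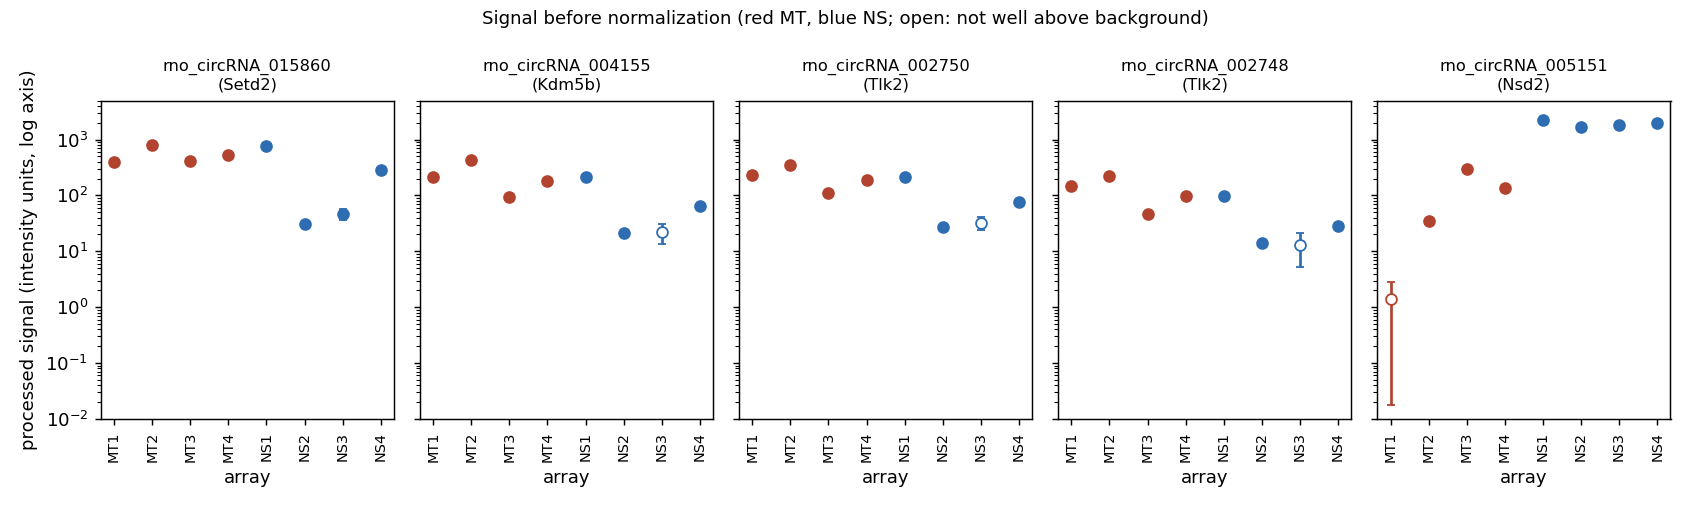
Background-corrected signal of the 5 circRNAs on each array (y axis, intensity units on a log axis) before normalization, with 1 panel per circRNA, MT arrays in red, NS arrays in blue, bars for the error given by the scanner software and open points where the spot was not well above background. NS1 sits among the MT arrays in the first 4 panels, and MT1 of the Nsd2 circRNA is at 1.40, the lowest of the 40 points.

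Before normalization the 4 circRNAs of Setd2, Kdm5b and Tlk2 were brighter on average in MT, although most circRNAs were dimmer there. The mean log2 signal was higher in MT by 1.96 for Setd2, 1.97 for Kdm5b, 1.73 for rno_circRNA_002750 and 2.05 for rno_circRNA_002748. These are folds of 3.88, 3.92, 3.32 and 4.14. Of all circRNAs kept, 11.7% had a higher mean in MT before normalization and 51.7% did so after normalization, and of those called higher in MT 54.3% had a higher mean before it. The 4 circRNAs were thus higher in MT on both sides of the normalization step. The Nsd2 circRNA was lower in MT by 5.66 on the log2 scale before normalization, a 50.6-fold difference, of which the dim spot on MT1 was a large part, since without MT1 the difference was -4.07.

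After quantile normalization, the Setd2 circRNA had a log2 level of 9.50 ± 0.92 in MT and 6.38 ± 2.08 in NS (SD, n = 4). Its values were 9.60, 10.70, 8.51 and 9.21 on MT1 to MT4, and 8.64, 4.18, 5.12 and 7.56 on NS1 to NS4. The difference was 3.13 (SE 0.94, from limma's moderated variance as in all that follow), or 8.73-fold. MT3 lay just below NS1, so the groups overlapped by 1 array on each side.

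The Kdm5b circRNA had a log2 level of 8.20 ± 1.50 in MT and 4.94 ± 1.34 in NS (SD, n = 4). Its values were 8.82, 9.88, 6.38 and 7.72 on MT1 to MT4, and 6.64, 3.58, 4.21 and 5.33 on NS1 to NS4. The difference was 3.26 (SE 0.84), or 9.59-fold, and again MT3 and NS1 overlapped.

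The circRNA rno_circRNA_002750 of Tlk2 had a log2 level of 8.25 ± 1.34 in MT and 5.21 ± 1.16 in NS (SD, n = 4). Its values were 8.91, 9.68, 6.60 and 7.81 on MT1 to MT4, and 6.63, 3.95, 4.66 and 5.58 on NS1 to NS4. MT3 and NS1 were nearly equal, and the difference between the groups was 3.05 (SE 0.74), or 8.26-fold. The circRNA rno_circRNA_002748 of the same kinase gene had 7.43 ± 1.69 in MT and 4.03 ± 1.06 in NS (SD, n = 4). Its values were 8.32, 9.18, 5.34 and 6.87 on MT1 to MT4, and 5.43, 2.90, 3.67 and 4.12 on NS1 to NS4. Here too MT3 lay just below NS1. The difference was 3.40 (SE 0.83), or 10.6-fold.

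The Nsd2 circRNA had a log2 level of 6.03 ± 2.63 in MT and 10.54 ± 0.12 in NS (SD, n = 4). Its values were 2.18, 6.60, 8.02 and 7.33 on MT1 to MT4, and 10.64, 10.36, 10.54 and 10.61 on NS1 to NS4. The groups did not overlap, with MT3, the highest MT array, 2.34 below NS2, the lowest NS array. The difference was -4.51 (SE 1.08), or 22.7-fold lower in MT, the largest decrease among the 11382 circRNAs. Without MT1, whose spot did not exceed background, it was -3.22, or 9.33-fold, and ranked 3 among the decreases. With all 8 arrays the other 4 held ranks 12 (rno_circRNA_002748), 15 (Kdm5b), 22 (Setd2) and 25 (rno_circRNA_002750) among the increases.

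**Figure D2:**
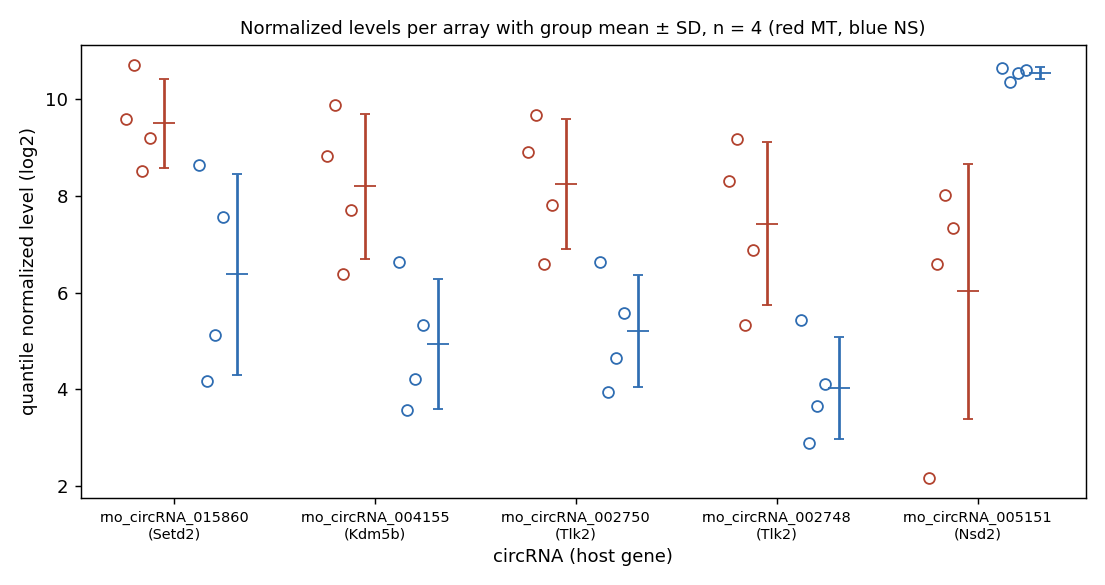
Quantile normalized log2 level (y axis) of each of the 5 circRNAs on the 4 MT arrays (red) and 4 NS arrays (blue), with group mean ± SD beside the points. In the circRNAs of Setd2, Kdm5b and Tlk2 the lowest MT point lies just below the highest NS point, while the Nsd2 circRNA has 4 tightly grouped NS points around 10.54 and MT points from 2.18 (MT1) to 8.02.

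With limma over all 11382 circRNAs, calls required both an adjusted p (Benjamini-Hochberg) no higher than 0.05 and a difference of 2-fold or more. All 5 met both, beside 28.1% of the circRNAs tested. The 4 higher in MT stood beside 15.9% of all circRNAs called in that direction, and the Nsd2 circRNA beside 12.2% called lower. Since the choice of the 5 rests on this comparison, nothing is read from these counts. The calls were lost for all 5 when MT2, MT4 or any single NS array was left out, and over all circRNAs 5 calls were then left without MT2 and 0 without each of the others. Without MT1 4 of the 5 were called, and without MT3 all 5.

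The order of the arrays within a group was not part of how the 5 were chosen by host gene, but it comes from the same values. When each MT array was set against each NS array, giving 16 pairs, the MT array was higher in 15 for each of the circRNAs of Setd2, Kdm5b and Tlk2. The exception was the same pair in all 4, MT3 below NS1, by 0.14 (Setd2), 0.25 (Kdm5b), 0.03 (rno_circRNA_002750) and 0.09 (rno_circRNA_002748) on the log2 scale. Among all circRNAs kept 1.90% showed exactly this overlap, and among those called higher in MT 4.70%. For Nsd2 the MT array was lower in all 16 pairs, as in 22.4% of the circRNAs kept. Before normalization the MT array was higher in 13 pairs for Setd2 and in 14 for the other 3, and lower in all 16 for Nsd2, as in 51.2% of the circRNAs kept. In none of the 4 did the lowest MT array exceed the highest NS array, before normalization or after it, and the shares of circRNAs kept that showed this were 0.413% and 22.1%.

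After normalization all 5 circRNAs, Nsd2 included, ranked the NS arrays alike, from highest to lowest NS1, NS4, NS3, NS2. This order was shown by 12.1% of the circRNAs kept, and the shares in this paragraph are of normalized values. For Nsd2 the order was close to a tie. Its NS arrays spanned 0.28, with NS1 at 10.64, NS4 at 10.61 and NS3 at 10.54. Before normalization rno_circRNA_002748 had NS2 (3.79) above NS3 (3.71), and the others kept the order. After normalization the 4 higher in MT also ranked the MT arrays alike, as MT2, MT1, MT4, MT3. That order was shared by 9.22% of the circRNAs kept and 25.8% of those called higher in MT. Before normalization the Kdm5b and Tlk2 circRNAs kept it. The Setd2 circRNA then ran MT2, MT4, MT3, MT1, with log2 signals of 9.63, 9.07, 8.71 and 8.66. NS1 was the highest NS array in 39.0% of the circRNAs kept and in 16.6% of those called higher in MT. Among the MT arrays the Nsd2 circRNA ran MT3, MT4, MT2, MT1, the order of 20.2% of the circRNAs kept and 53.9% of those called lower in MT. After normalization MT1 and MT2 were the highest MT arrays of the 4 and the lowest of Nsd2. They were also the dimmest arrays, with median signals of 11.1 and 12.7 against 29.0 on MT4 and 38.9 on MT3. The part of brightness in these orders was not tested.

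**Figure D3:**
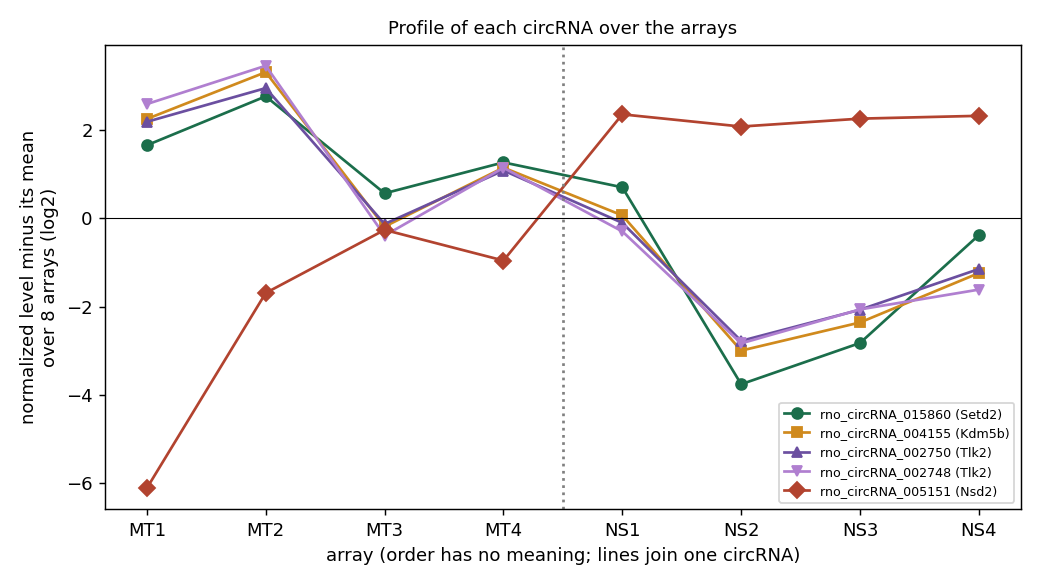
Quantile normalized log2 level of each circRNA minus its own mean over the 8 arrays (y axis) by array (x axis), with 1 line per circRNA and a dotted line between the MT and NS arrays. The circRNAs of Setd2, Kdm5b and Tlk2 peak together on MT2 and are lowest on NS2, and the Nsd2 circRNA lies higher on every NS array than on any MT array, with its lowest point on MT1.

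The likeness of 2 circRNAs was measured as the root mean square difference of their centred log2 values over the 8 arrays, where 0 means the same pattern. Kdm5b and rno_circRNA_002750 of Tlk2 differed by 0.20, Kdm5b and rno_circRNA_002748 by 0.26, and the pair of Tlk2 circRNAs by 0.31. For rno_circRNA_002748 the Kdm5b circRNA was the nearest of all 11381 others and its partner from the same gene the third nearest. The pair from one host gene was thus no closer to each other than each was to the Kdm5b circRNA with this centring. The Setd2 circRNA stood further off, at 0.63 from Kdm5b, 0.67 from rno_circRNA_002750 and 0.88 from rno_circRNA_002748. The Nsd2 circRNA lay 4.40 to 4.63 from the other 4, near the far end of all circRNAs. Since the direction of the difference between groups sets much of this, the values were also centred within each group. Kdm5b and rno_circRNA_002750 then differed by 0.16, Kdm5b and rno_circRNA_002748 by 0.26, the Tlk2 pair by 0.25, and Setd2 from the other 3 by 0.63 to 0.87.

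Among the other 53 named circRNAs, those with the most similar pattern to each of the 5 were as follows. Nearest to the Setd2 circRNA was rno_circRNA_001555 of the phosphodiesterase gene Pde10a, at 0.07, the nearest of all 11381, followed by rno_circRNA_013958 of Ttc7 at 0.20. Nearest to the Kdm5b circRNA were rno_circRNA_012504 of Prex2, which encodes an exchange factor for Rac GTPases, at 0.20 and rno_circRNA_016457 of Dis3l, which encodes an exosome ribonuclease, at 0.24. Nearest to rno_circRNA_002750 were Dis3l at 0.14, again the nearest of all, and rno_circRNA_017300 of Fam126b at 0.21. For rno_circRNA_002748 they were rno_circRNA_007341 of the casein kinase gene Csnk1g3 at 0.29 and Prex2 at 0.31. The Nsd2 circRNA had no such close neighbour, with rno_circRNA_016592 of Vps13c at 0.51 and rno_circRNA_009194 of Homer1, a postsynaptic scaffold gene, at 0.54.

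The 5 circRNAs varied unevenly within groups. Over all circRNAs kept the median SD was 0.677 in MT and 0.273 in NS, and 17.3% had the larger SD in NS. The Setd2 circRNA was one of the latter, with an NS SD of 2.08, above 99.4% of all circRNAs and 2.26 times its MT SD. The NS SDs of Kdm5b (1.34), rno_circRNA_002750 (1.16) and rno_circRNA_002748 (1.06) lay above 98.2%, 97.4% and 96.4% of all circRNAs. Their MT SDs lay above 91.1%, 87.8% and 94.1%, so these 3 varied widely in both groups. The Nsd2 circRNA was the reverse, with an NS SD of 0.12, above 12.6% of all circRNAs, and an MT SD of 2.63, above 99.3%, which was 21.4 times the former. This MT SD rested on MT1, where the spot did not exceed background. Over MT2 to MT4 it was 0.71, above 73.7% of all circRNAs, whose median over the same 3 arrays was 0.485, and it was 5.80 times the NS SD.

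**Figure D4:**
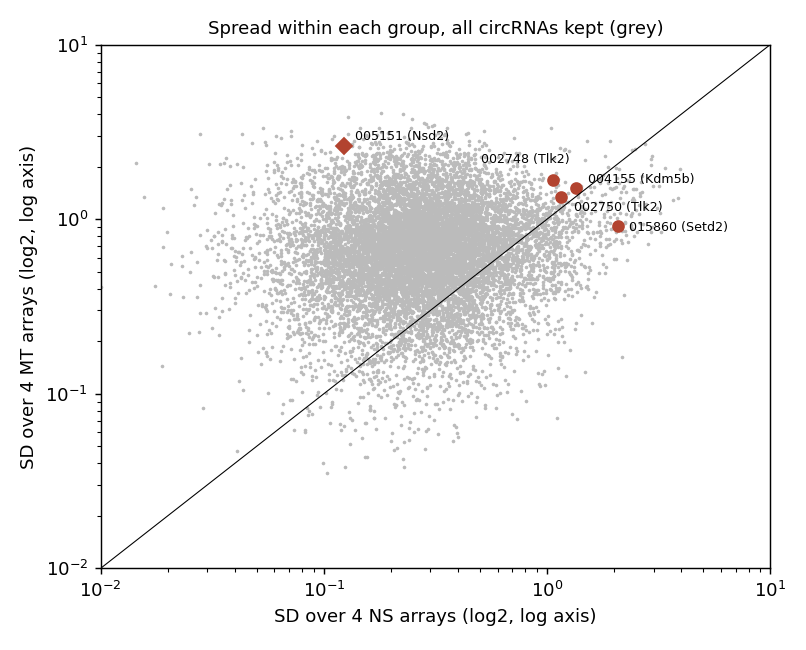
SD over the 4 MT arrays (y axis) against SD over the 4 NS arrays (x axis), both of quantile normalized log2 levels on log axes, for all circRNAs kept (grey) and the 5 circRNAs (red), with a line where both SDs are equal. The Setd2 circRNA lies below the line at 2.08 in NS, and the Nsd2 circRNA lies far above it at 0.12 in NS and 2.63 in MT (0.71 without MT1, not drawn).

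The technical spread between spots was known from repeated probes. The 82 other probes are printed 10 to 20 times on each array, and the median SD of their log2 signals within an array was 0.08 at 30 to 100 intensity units, 0.08 at 100 to 300, and 0.06 at 1000 to 10000, where the NS spots of Nsd2 lay. At 10 to 30 units, where 6 of the NS spots of Kdm5b and Tlk2 lay, it was 0.16, and on NS3 0.43. Below 10 units, where the MT1 spot of Nsd2 lay, it was 0.14, with an upper quartile of 0.40. Many probes there shared nearly the same lowest signal of their array, such as medians of 1.28 and 1.30 on MT1 and 8.02 and 8.14 on NS3. The SD below 10 units therefore does not measure how well the 1.40 of Nsd2 on MT1 is fixed.

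Leaving out arrays moved the differences without turning any. The Setd2 difference went from 2.40 without NS2 to 3.88 without NS1. That of Kdm5b went from 2.70 without MT2 to 3.87 without MT3, that of rno_circRNA_002750 from 2.57 to 3.60 and that of rno_circRNA_002748 from 2.81 to 4.10 on leaving out the same arrays. The Nsd2 difference went from -3.22 without MT1 to -5.17 without MT3. Without NS3, where the spots of Kdm5b and Tlk2 were not well above background, the differences of these 3 were 3.02 (Kdm5b), 2.86 (rno_circRNA_002750) and 3.28 (rno_circRNA_002748). In the log2 values that the authors deposited, the differences were 2.50 (Setd2), 2.52 (Kdm5b), 2.45 (rno_circRNA_002750), 2.39 (rno_circRNA_002748) and -3.60 (Nsd2), each smaller in size than after the normalization used here.

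**Figure D5:**
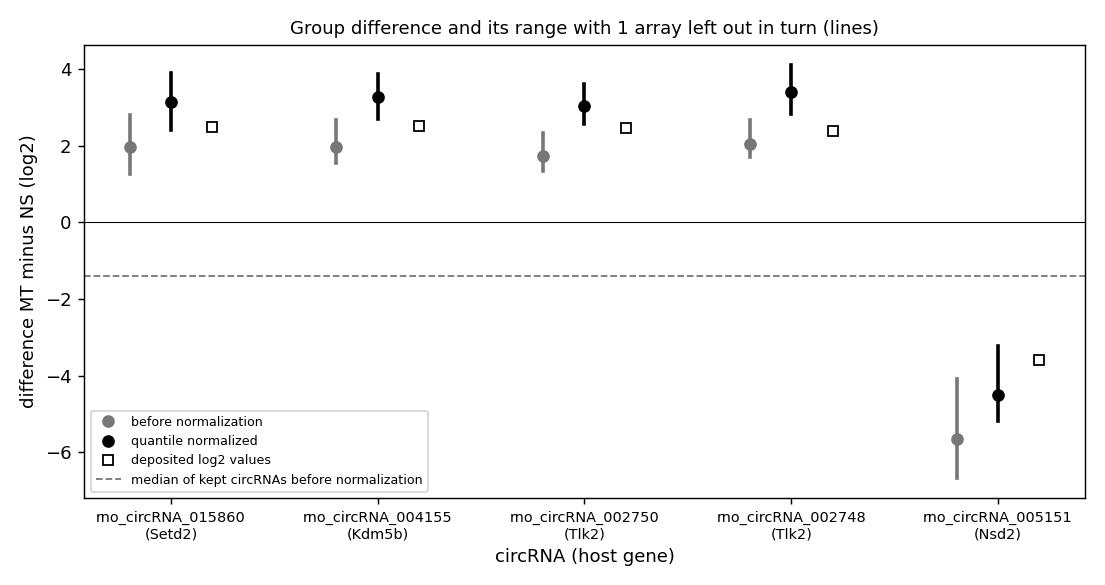
Difference MT minus NS on the log2 scale (y axis) for each of the 5 circRNAs before normalization (grey), after quantile normalization (black) and in the deposited log2 values (squares), with vertical lines for the range when each array is left out in turn. The 4 circRNAs of Setd2, Kdm5b and Tlk2 are above 0 in all 3 and the Nsd2 circRNA is below 0, while the dashed line marks the median of all circRNAs kept before normalization, -1.40.

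Other chromatin genes were looked for with a list of 65 genes for histone methylation, demethylation, acetylation, nucleosome assembly and remodelling. Host names were at hand only for the 58 circRNAs of the study's list, where rno_circRNA_013445 had no host symbol. Of the 58, 10 had a host on the chromatin list. These were the 5 above and 5 circRNAs of Rere, a co-repressor gene that recruits histone deacetylases. The Rere circRNAs were lower in MT, with log2 differences from -3.09 to -2.94. On all 5 the MT arrays were lowest on MT1 and highest on MT3, as for the Nsd2 circRNA. For the remaining circRNA probes no host name was used here, so the share of chromatin hosts among circRNAs that changed less is not known.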

How the data were processed

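RNase R treatment to remove linear RNA, Cy3 labelling and scanning of 8 one-colour arrays, 1 rat each, were done by the authors, who read the images with Feature Extraction 11.0.1.1. They deposited, per spot, the intensity (background-corrected signal, spot and local background brightness) and a table of log2 values for 11382 circRNAs, described as quantile normalized in limma. The signal column behind it is not given in the sources used here. With 4 arrays per group, their number limits the precision.

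From the intensities, log2 signals were quantile normalized over 15165 non-control spots (R 4.3.3, limma 3.58.1), outlier spots were then left out, and circRNAs well above background on at least 4 arrays were kept. MT and NS were compared with limma without covariates. Probes were tied to circRNA names through the raw group means in the study's list, within 0.001 intensity units, and 58 of 58 matched 1 probe each.

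The members and lists were chosen with earlier results of these data known. The circRNAs named are the 5, the 2 named ones most like each in pattern, and those with a host on the chromatin list. Pattern likeness centred within groups, leaving out NS1 and NS3 together, and the SD and rank of the Nsd2 circRNA without MT1 were added after seeing the data.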

Additional observations from a re-analysis of the deposited data

How the results depend on the processing

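The difference between MT and NS kept its direction for all 5 circRNAs in every setting run. These were 8 other settings, leaving out each array in turn, and, before normalization, 2 other settings. Among the 8, keeping outlier spots and using the replicate number as a block could not move the difference. No spot of the 5 circRNAs was an outlier, and each number occurs once in each group. The difference moved by more than the spread between replicates once, to 1.75 for rno_circRNA_002748 of Tlk2 with normexp background correction (offset 50). Over the other settings that could move it, it ran from 2.14 to 3.63 for Setd2 and 1.97 to 3.75 for Kdm5b. The ranges were 1.95 to 3.48 for rno_circRNA_002750, 1.75 to 3.92 for rno_circRNA_002748 and -4.45 to -3.18 for Nsd2.

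The number of circRNAs called, 3201, depended on the setting far more. It was 1143 (485 higher and 658 lower in MT) with normexp, 1635 (725 and 910) with the spot signal without background correction, 2010 (889 and 1121) with the deposited log2 values, 1825 (1090 and 735) with the filter at all 8 arrays, and 106 (30 and 76) with the methods' t-test after adjustment. The main split was 1808 higher and 1393 lower. Leaving out each array gave 0 to 5181, with 5 without MT2, 5181 without MT3 and 0 without MT4 or any NS array, and leaving out NS1 and NS3 together, a setting chosen after seeing the data, gave 0 with limma (2440 at an unadjusted p of at most 0.05). The cause was not tested. With the replicate number as a block 0 were called with limma, and 5294 had an unadjusted p of at most 0.05. The correlations of same-numbered MT and NS arrays about their group means were 0.01, -0.21, 0.14 and -0.09. Arrays with different numbers gave values of like size, such as 0.14 (MT2 and NS1) and 0.13 (MT4 and NS3). No pairing by number showed in these values, but so few pairs cannot exclude one. Signal over background limits the circRNAs of Kdm5b and Tlk2 on NS3 and that of Nsd2 on MT1.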

Other observations

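The Setd2 circRNA and rno_circRNA_001555 of Pde10a had nearly the same profile. Their centred log2 levels differed by at most 0.16 on any array (NS3), while the Setd2 circRNA spanned 6.52 over the 8 arrays. Their root mean square difference was 0.07. The median SD between repeated spots was 0.08 at 30 to 1000 intensity units. On NS3 it was 0.24 at 30 to 100 units, where the Setd2 spot of that array lay. The SD is of single spots and the 0.07 of a difference between a pair of probes, so the measures are unlike. The difference MT minus NS of the Pde10a circRNA was 3.11. The spots lay apart on the array, in row 42, column 64 and row 23, column 53. Whether the probes share sequence was not tested, since their sequences were not used here.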
